A study of Mus musculus with 5 samples.

Results

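The endocannabinoid system was described here through 9 genes: the receptors Cnr1 and Cnr2, the synthesis enzymes Dagla, Daglb and Napepld, and the breakdown enzymes Mgll, Faah, Abhd6 and Abhd12. They were chosen by symbol, and each matched 1 of the 47729 Ensembl genes in the deposited table. RNA sequencing had been run on brain RNA of 5 male C57BL/6 mice aged 30 months. The labels give 1 group and no treatment, and number the samples 7, 8, 9, 10 and 11, which are called mice 7 to 11. No younger animals were analysed here, so none of the values describes a change with age. The libraries held between 15392006 and 18723390 counts. The labels do not say outright that each sample is a separate animal. The SDs and p-values (n = 5 throughout) therefore describe how far these samples differ, and part of that may be technical.

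Mouse 11 stood apart from the other 4 libraries in a way that followed the GC content of transcripts. Across 16264 tested genes, Pearson's r between transcript GC content and the log2 deviation from the gene's mean was 0.65 in mouse 11. It was -0.41 in mouse 7, in the opposite direction, and between -0.30 and -0.01 in mice 8 to 10. This is a description across genes, which share libraries and are not independent replicates. The deviations of the 9 genes are therefore given with and without this trend, while RPKM levels and marker sums are not corrected for it.

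Endocannabinoids are lipid messengers made on demand from membrane lipids. In the brain, 2-arachidonoylglycerol (2-AG) is made from diacylglycerol by the lipases DAGLα and DAGLβ at the postsynaptic side, travels backwards across the synapse and activates the G protein-coupled receptor CB1 on the presynaptic terminal, which lowers transmitter release. Most of it is then broken down by monoacylglycerol lipase, with ABHD6 and ABHD12 taking the rest. The second messenger, anandamide, is one of the N-acylethanolamines, which NAPE-PLD releases from a membrane phospholipid and fatty acid amide hydrolase (FAAH) breaks down. The receptor CB2 is best known from immune cells.

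The enzymes of the 2-AG branch are serine hydrolases of the same fold, and the coding sequence around the active-site serine shows what they share. The motif of glycine, any residue, serine, any residue, glycine was searched in frame in the longest complete coding sequence of each gene in GENCODE M21 (GRCm38). It was found 3 times in Dagla, 2 times each in Mgll, Abhd12 and Faah, 1 time each in Daglb and Abhd6, and not in Cnr1, Cnr2 or Napepld. With histidine or threonine required in the second place and methionine or leucine in the fourth, 1 match was left in each of the following genes and none in Faah. The residues allowed are those that the sequences below carry, so a match in each of them was set by the pattern. Each line gives 63 coding bases, 5′ to 3′, with the motif in capitals.
Dagla: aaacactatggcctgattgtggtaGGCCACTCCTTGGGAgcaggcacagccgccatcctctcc
Daglb: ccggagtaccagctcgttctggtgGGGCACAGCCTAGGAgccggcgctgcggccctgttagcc
Mgll: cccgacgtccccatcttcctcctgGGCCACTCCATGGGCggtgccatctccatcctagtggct
Abhd6: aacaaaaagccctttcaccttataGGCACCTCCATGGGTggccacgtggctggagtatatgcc
Abhd12: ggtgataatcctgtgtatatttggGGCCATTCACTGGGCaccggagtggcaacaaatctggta
The serine is encoded by codon 472 of 1044 in Dagla, 443 of 669 in Daglb, 122 of 331 in Mgll, 148 of 336 in Abhd6 and 246 of 398 in Abhd12. Dagla and Daglb, which make 2-AG, were the most alike of the 10 pairings, with 36 of 63 bases identical. The other pairings shared between 26 and 32. These counts include the motif, which the search required in every window. The GC content of the windows was 58.7% in Dagla, 69.8% in Daglb, 65.1% in Mgll, 52.4% in Abhd6 and 49.2% in Abhd12.

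Levels are given in RPKM, counts scaled to gene length and library total, so that genes of different length can be compared. All 9 genes had a mean count of at least 10, and 8 of them were well expressed. Abhd12 had by far the highest level, at 113 ± 19.0 RPKM (SD), above 99.1% of the 28335 genes with at least 1 count. Mgll and Cnr1 followed with 39.4 ± 8.86 and 38.0 ± 5.30 RPKM, then Dagla with 21.5 ± 5.34 and Abhd6 with 19.2 ± 2.68. Faah had 11.7 ± 1.68, Napepld 6.03 ± 0.492, Daglb 3.53 ± 0.496 and Cnr2 0.186 ± 0.118 RPKM. Of the neighbours in this order, Mgll and Cnr1 did not differ beyond their spread, with a mean log2 ratio of 0.04 and an SD of 0.47. Mgll was the higher only in mouse 11, and Cnr1 in mice 7 to 10, by 0.11 to 0.21 log2 units. Dagla and Abhd6 did not either, at 0.14 with an SD of 0.51, and Dagla was the higher in 2 of 5 mice. For the other 6 neighbours the mean log2 ratio within a mouse exceeded its SD, although the values of Cnr1 and Dagla overlapped across mice.

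**Figure D1:**
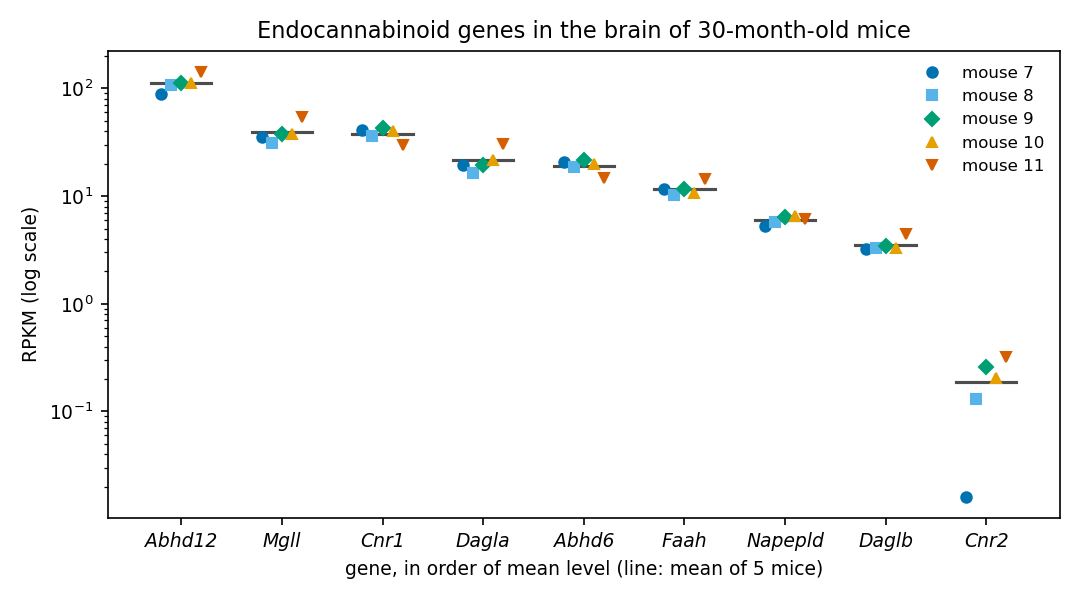
Level of each endocannabinoid gene in RPKM on a log axis, with 1 point per mouse and a line at the mean of the 5 mice. Abhd12 lies highest in every mouse and Cnr2 lowest, while mouse 11 is the highest point for Dagla, Daglb, Mgll, Faah, Abhd12 and Cnr2 and the lowest for Cnr1 and Abhd6.

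The order depends in part on the gene lengths behind RPKM. Counts were divided by the gene lengths implied by the deposited RPKM. For every member but Abhd6 these nearly matched the summed length of all exons, which joins the exons of every annotated transcript. That length came to 9567 bases for Daglb and 7834 bases for Faah. For Abhd6 the implied length was 2157 bases, against a summed length of 2365. Some other genes also had shorter implied lengths, such as the G protein gene Gnao1 with 6785 against 11053 bases. Per length of the longest protein-coding transcript (4651 bases for Daglb and 3827 for Faah), a setting added after seeing the data, Faah had 24.0 ± 3.44 RPKM, above Dagla with 22.0 ± 5.45 and Abhd6 with 18.6 ± 2.60. Daglb then had 7.27 ± 1.02 RPKM, above Napepld with 6.03 ± 0.493. Abhd12 stayed highest, with 159.9 ± 26.9 RPKM, and Mgll had 50.2 ± 11.3 against 42.2 ± 5.88 for Cnr1.

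Cnr1, which encodes CB1, lies on chromosome 4 of GRCm38 from 33924593 to 33948831 (ENSMUSG00000044288). Its longest transcript has 5807 bases, of which 3796 are 3′ untranslated with a GC content of 38.3%. Cnr1 had 4103, 3607, 4325, 4186 and 3567 counts in mice 7 to 11. These gave 40.9, 36.4, 42.8, 40.5 and 29.6 RPKM in the same order. Mouse 11 had the lowest level and the other 4 lay close together. After TMM scaling, which aligns the libraries on the bulk of their genes, mouse 11 was 0.36 log2 units below the mean of the others. Once each library had been corrected for its trend with GC content and length, it was 0.08 above.

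Cnr2, which encodes CB2, lies on the same chromosome from 135895394 to 135920207 (ENSMUSG00000062585). It was near the limit of detection, with 1, 8, 16, 13 and 24 counts in mice 7 to 11 and 62 counts in all. In CPM, counts scaled to the library total alone, this was 0.0643 in mouse 7, with an exact Poisson interval of 0.00163 to 0.358, and 1.28 in mouse 11, with 0.821 to 1.91. These intervals are 95% intervals and cover counting error only. The interval of mouse 7 overlapped that of mouse 8 and lay below those of mice 9, 10 and 11, while those of mice 8 to 11 overlapped each other. Microglia, which can express Cnr2, were present in every library: their 7 markers summed to between 434 CPM in mouse 7 and 519 CPM in mouse 11. The markers did not share 1 direction. After TMM scaling, 4 of the 7 were highest and 2 lowest in mouse 11, against 37.5% and 32.8% of all genes. P2ry12 had 50.4 CPM in mouse 7, its highest, and 18.4 CPM in mouse 11, its lowest. The part of microglia in the Cnr2 counts was not tested. In whole tissue, fewer cells of a type and less RNA per cell cannot be told apart, here and below.

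Dagla encodes DAGLα, the main enzyme of 2-AG synthesis in the adult brain, and lies on chromosome 19 from 10245265 to 10304877 (ENSMUSG00000035735). It had 1755, 1442, 1760, 2005 and 3274 counts in mice 7 to 11. The levels were 19.6, 16.3, 19.5, 21.7 and 30.4 RPKM, highest in mouse 11 and lowest in mouse 8. Mouse 11 was 0.74 log2 units above the mean of the others after TMM scaling and 0.11 above with the GC and length trend removed. Its transcript has a GC content of 58.8%, the highest of the 9 genes. Without mouse 11 the mean level was 19.3 RPKM.

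Daglb encodes DAGLβ, the second diacylglycerol lipase, best known from immune cells, and lies on chromosome 5 from 143464584 to 143505942 (ENSMUSG00000039206). It had 477, 482, 519, 509 and 789 counts in mice 7 to 11. In RPKM, mice 7 to 10 lay between 3.21 and 3.46 and mouse 11 at 4.40. Mouse 11 was 0.49 log2 units above the mean of the others after TMM scaling and 0.45 above with the GC and length trend removed, so most of the gap was still there. Of the exon bases of Daglb, 24.1% are also exons of Rac1 on the opposite strand. Rac1, a small GTPase gene, had between 4146 and 5678 counts, and without a stated strand setting reads of the shared stretch cannot be assigned. In CPM, Rac1 was highest in mouse 9, at 337, and had 303 in mouse 11.

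Napepld encodes the phospholipase NAPE-PLD that releases N-acylethanolamines, and lies on chromosome 5 from 21662901 to 21701396 (ENSMUSG00000044968). It had 327, 352, 396, 415 and 454 counts in mice 7 to 11. With levels of 5.32, 5.78, 6.39, 6.54 and 6.13 RPKM it varied least of the 9 genes in RPKM, and mouse 11 lay among the others. Its coefficient of variation was 8.17%, against 13.9% to 63.5% in the other 8. With the GC and length trend removed, mouse 11 was the highest, 0.45 log2 units above the mean of the others, against 0.11 after TMM scaling. Its SD was then 0.25 log2 units, larger than that of every other member except Cnr2, so its place in the order of spread turned round.

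Mgll encodes monoacylglycerol lipase, which breaks down most 2-AG in the brain, and lies on chromosome 6 from 88724412 to 88828360 (ENSMUSG00000033174). It had 2819, 2456, 3024, 3049 and 5191 counts in mice 7 to 11. Its levels were 35.7, 31.4, 38.0, 37.4 and 54.6 RPKM, so mouse 11 lay far above a narrow group of 4. Mouse 11 was 0.70 log2 units above the mean of the others after TMM scaling and 0.30 above with the GC and length trend removed. Without mouse 11 the mean level was 35.6 RPKM. The antisense gene Gm26588 shares 3.29% of the exon bases of Mgll and had between 12 and 28 counts.

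Abhd6 encodes a membrane-bound hydrolase that takes a smaller part of 2-AG breakdown, and lies on chromosome 14 from 8002902 to 8056763 (ENSMUSG00000025277). It had 698, 620, 735, 694 and 601 counts in mice 7 to 11. The levels were 20.8, 18.7, 21.8, 20.1 and 14.9 RPKM. Like Cnr1, and unlike the other breakdown enzymes, it was lowest in mouse 11. That mouse was 0.37 log2 units below the mean of the others after TMM scaling and 0.24 below with the trend removed.

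Abhd12 encodes a hydrolase that also breaks down lysophosphatidylserine, and loss of the human gene causes the neurodegenerative disease PHARC. It lies on chromosome 2 from 150832493 to 150904741 (ENSMUSG00000032046). It had 3917, 4703, 5026, 5108 and 7524 counts in mice 7 to 11. The levels were 89.2, 108, 114, 113 and 142 RPKM, lowest in mouse 7 and highest in mouse 11. Mouse 11 was 0.51 log2 units above the mean of the others after TMM scaling and 0.12 above with the trend removed, when mouse 9 was the highest.

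Faah encodes the enzyme that breaks down anandamide, and lies on chromosome 4 from 115967145 to 116017926 (ENSMUSG00000034171). It had 1408, 1232, 1426, 1349 and 2135 counts in mice 7 to 11. The levels were 11.6, 10.2, 11.6, 10.7 and 14.6 RPKM, again highest in mouse 11 with the other 4 close together. Mouse 11 was 0.48 log2 units above the mean of the others after TMM scaling and 0.20 above with the trend removed.

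The levels of 9 pairs of genes were compared within each mouse as the log2 ratio of RPKM, with 0.1 added to each value, which understates ratios to the low Cnr2. Among receptors, Cnr1 exceeded Cnr2 by 7.18 ± 0.84 log2 units (SD). Among synthesis enzymes, Dagla exceeded Daglb by 2.55 ± 0.19, or 5.86-fold, and Napepld by 1.79 ± 0.31, or 3.46-fold. Among breakdown enzymes, Mgll exceeded Faah by 1.73 ± 0.12, or 3.31-fold, and Abhd6 2.03-fold (SD of 0.48 log2 units, mouse 11 at 1.87 against 0.75 to 0.90 elsewhere). It was below Abhd12 with a ratio of -1.53 ± 0.18. Abhd12 exceeded Abhd6 by 2.55 ± 0.43. Across the steps of each branch, Mgll exceeded Dagla by 0.88 ± 0.07, or 1.84-fold, and Faah exceeded Napepld by 0.94 ± 0.22, or 1.92-fold. Each difference had the same direction in 5 of 5 mice. An exact permutation test that flips signs (two-sided) gave each pair p = 0.0625, the smallest that 5 mice allow, and p = 0.0625 after adjustment over the 9 pairs, so no pair could pass 0.05. Every pair kept its direction per length of the longest protein-coding transcript, but the sizes of 3 moved by more than 1.5 times. Dagla was then 2.95-fold above Daglb, Mgll 2.06-fold above Faah and Faah 3.91-fold above Napepld. The ratio of Cnr1 to Cnr2 depended on the value added to RPKM: it was 5.04 log2 units with 1 added and 7.999 with 0.01.

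**Figure D2:**
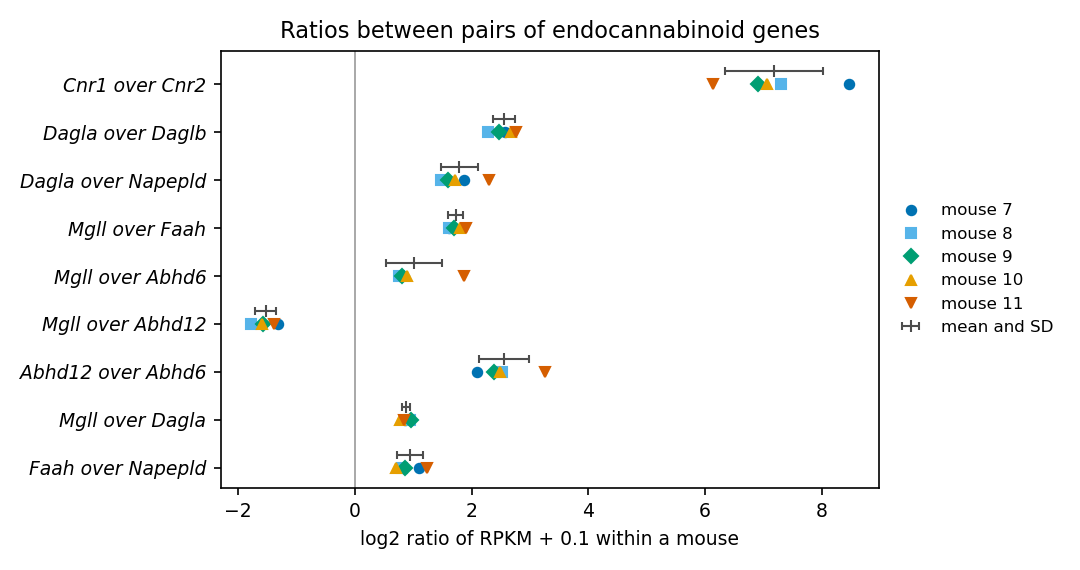
Log2 ratio of RPKM + 0.1 between 2 genes in each mouse (points), with the mean and SD over the 5 mice as a bar above them. All points of a pair lie on the same side of 0; Mgll over Dagla has the narrowest spread, and Mgll over Abhd6 is set apart in mouse 11.

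In RPKM, the ratios between some of these genes ranged little over the 5 mice although each gene varied between mice. The values were seen before these ratios were picked out, so they are a description. Counting error was not separated from the SDs, and Abhd6 had only 601 to 735 counts. A small SD therefore does not show that a ratio is held. Of the 28 ratios between the 8 genes other than Cnr2, Cnr1 to Abhd6 varied least, at 1.95 to 2.02 in RPKM over the 5 mice, an SD of 0.02 log2 units. Dagla to Mgll, synthesis to breakdown of 2-AG, followed with ratios of 0.514 to 0.581, an SD of 0.07, and Daglb to Faah with 0.277 to 0.320, an SD of 0.08. The widest was Dagla to Abhd6, from 0.873 to 2.04, with 2.04 in mouse 11. With the GC and length trend removed, the order changed: Cnr1 to Abhd6 had an SD of 0.17 log2 units, 18th of the 28, and Daglb to Faah 0.14. Dagla to Mgll stayed narrow at 0.10, and Cnr1 to Dagla varied least at 0.06. Without mouse 11, Cnr1 to Abhd6 again varied least in RPKM, with an SD of 0.02. Dagla to Mgll was then 8th of the 28, at 0.08, and Daglb to Faah 11th, at 0.09.

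To ask whether a gene differed between mice more than genes of its expression do, its dispersion was tested in edgeR across the 16318 genes whose counts averaged 10 or more. None of the 9 genes passed an adjusted p of 0.05, where 0% of all genes passed. Nor did any reach an unadjusted p under 0.05, against 4.82% of all genes (786). The lowest unadjusted p in edgeR were 0.104 for Cnr2, 0.115 for Dagla and 0.148 for Mgll, with adjusted p of 0.981, 0.981 and 0.982. The median SD of log2 CPM was 0.23 over the 9 genes and 0.30 over all genes tested. A p that misses the threshold does not show that the mice were alike.

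After TMM scaling, 6 of the 9 genes were highest in mouse 11 (Cnr2, Dagla, Daglb, Mgll, Faah and Abhd12), where 37.5% of all genes tested were. Another 2, Cnr1 and Abhd6, were lowest there, where 32.8% of all genes were. After correction for GC content and length, 5 of 9 were highest in mouse 11 (Cnr2, Daglb, Mgll, Faah and Napepld), against 29.9% of all genes, and Abhd6 alone was lowest, against 24.9%. The median SD of the 9 genes was then 0.16, against 0.23 for all genes, again not matched for expression. In mouse 7, 4 of the 9 genes were lowest after TMM scaling, where 4134 of all 16318 genes were. With the trend removed, 4 were again lowest there, against 4953 of all genes.

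**Figure D3:**
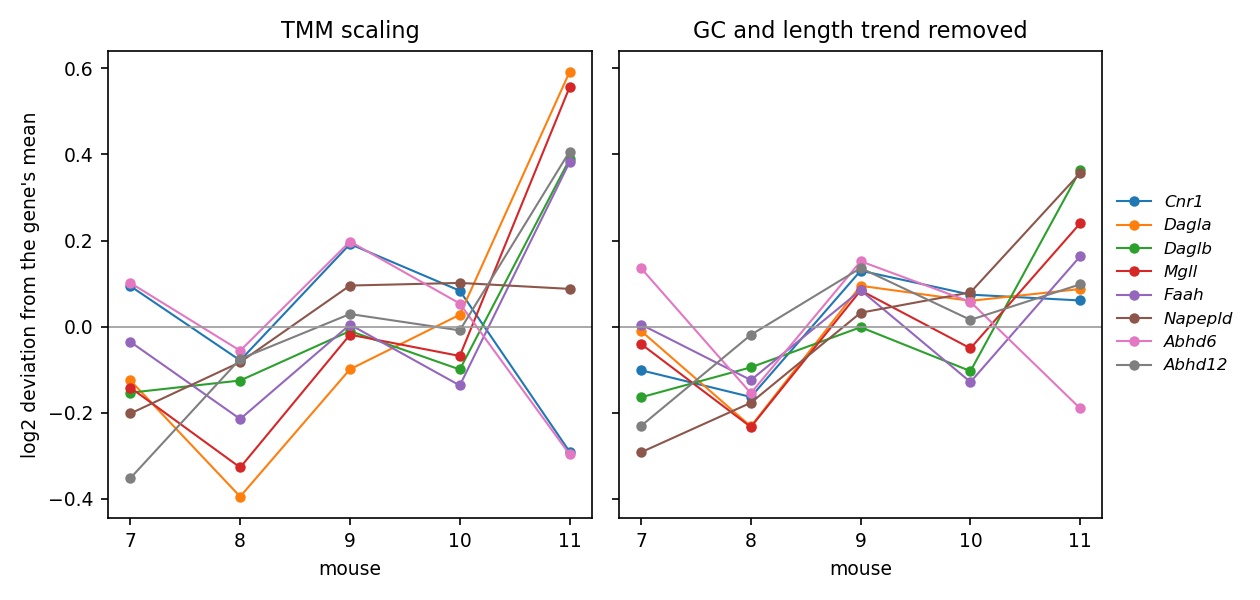
Log2 deviation of 8 genes from their mean over the 5 mice, by mouse, after TMM scaling (left) and with GC and length trends removed (right). Lines only join the values of a gene, and Cnr2 is left out because of its low counts. On the left mouse 11 spreads from -0.30 (Abhd6) to 0.59 (Dagla), and on the right from -0.19 (Abhd6) to 0.36 (Daglb).

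Set against genes of like GC content, 4 of the 9 lay within the middle range of mouse 11. Genes with 44% to 48% GC had a median deviation of -0.25 in mouse 11, and Cnr1, at 44.9%, had -0.29. Genes with 56% to 60% GC had a median of 0.47, and Dagla, at 58.8%, had 0.59. Faah and Abhd12, with 0.38 and 0.41, also lay between the quartiles of their bin, which were 0.09 and 0.41. Above the upper quartile of their bins were Cnr2 (1.16 against 0.20), Daglb (0.39 against 0.20), Mgll (0.56 against 0.41) and Napepld (0.09 against -0.01). Abhd6, with -0.30, lay below the lower quartile of -0.23.

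**Figure D4:**
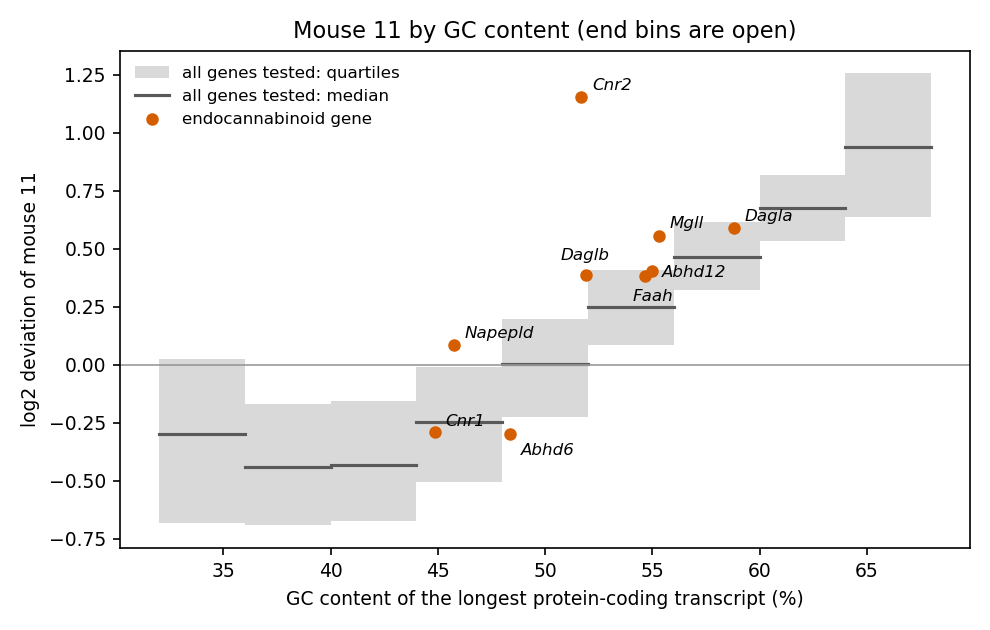
Log2 deviation of mouse 11 from the gene's mean against the GC content of the longest protein-coding transcript; grey boxes and lines give the quartiles and median of all genes tested in bins of GC content, and points the 9 endocannabinoid genes. The medians run from -0.44 at 36% to 40% GC to 0.94 at 64% and above, and Cnr2, Daglb, Mgll and Napepld lie above the boxes while Abhd6 lies below.

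The genes whose pattern over the 5 mice was most like that of Cnr1 were Abhd6, Tars and Lman1, with root mean square differences of 0.0174, 0.0242 and 0.0263 log2 units. They were sought among the 11194 genes whose counts averaged 100 or more. For Dagla, which had the largest SD among the members with such counts, they were Nagpa, Pde4a and Tpst2, with 0.0279, 0.0323 and 0.0352. Abhd6, Tars and Lman1 have transcripts of 44.2% to 48.4% GC, and Nagpa, Pde4a and Tpst2 of 57.2% to 60.4%. With 5 mice and so many genes, close matches arise readily, and they say nothing of shared function.

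A further 48 genes around the system, in 8 lists, were described in the same way. Of these, 42 were tested for variation, and 0 passed an adjusted p of 0.05 in edgeR. At an unadjusted p under 0.05 there were 2, the phospholipase Plcb4 and the fatty acid-binding protein Fabp7, a share close to the 4.82% of all genes. With no filter beyond 1 count, both were called in edgeR, with adjusted p of 0.0391 for Plcb4 and 0.0419 for Fabp7. In that setting 230 of all 28335 genes were called (0.81%). In the other 10 settings the adjusted p of Plcb4 and Fabp7 lay between 0.405 and 0.984. The median SD of log2 CPM of the 42 was 0.29.

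Genes of proteins that bind CB1 had mean levels from 13.2 to 76.2 RPKM. Gprasp1, which sorts internalised receptors towards lysosomes, had 76.2 ± 20.8 RPKM, with 103 in mouse 7 and 45.9 in mouse 11. Sgip1, which hinders CB1 internalisation, had 23.2 ± 0.948 RPKM, and Cnrip1, a protein that binds the tail of CB1, 13.2 ± 1.44. The other lipid receptors were low by comparison. Pparg and Ppara, nuclear receptors activated by acylethanolamines among other lipids, had 1.18 ± 0.362 and 0.808 ± 0.273 RPKM. Gpr18 had 0.550 ± 0.125 and Gpr55, a lysophosphatidylinositol receptor, 0.464 ± 0.113 RPKM. All 4 were lowest in mouse 11, before and after the GC and length trend was removed, against 32.8% and 24.9% of all genes. Gpr18 had 10 to 15 counts and Gpr55 23 to 37, and for both the 95% Poisson intervals of all mice overlapped each other. The capsaicin receptor gene Trpv1 had 4, 3, 0, 4 and 0 counts in mice 7 to 11, and Gpr119 had 1 count in each of mice 7 and 8 and 0 in the others, where 3 counts, or 0.160 to 0.192 CPM, stay possible.

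Anandamide and its relatives can also be made without NAPE-PLD, and the genes of those routes were higher per length than Napepld in part. The glycerophosphodiesterase Gde1 had 106 ± 9.78 RPKM, the hydrolase Abhd4 25.9 ± 4.76 and the lysophospholipase D Gdpd1 21.5 ± 2.12. Gdpd3 had 0.515 ± 0.210 RPKM, and the phosphatases Inpp5d and Ptpn22, proposed for a further route, 2.77 ± 0.335 and 0.260 ± 0.106. Pla2g4e, an N-acyltransferase that makes the precursor of the N-acylethanolamines, had 1.83 ± 0.387 RPKM. Naaa, a lysosomal amidase acting beside FAAH, had 9.84 ± 1.74 RPKM. The cyclooxygenase Ptgs2, which can oxidise 2-AG and anandamide, had 3.79 ± 0.938 RPKM, and the cytochrome P450 gene Cyp2d22 13.6 ± 1.35. Alox12 had 0.299 ± 0.0777 RPKM and Alox15 a mean of 1.6 counts. The carboxylesterase Ces1d had a mean of 8.4 counts.

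The diacylglycerol used by DAGLα comes from phospholipase Cβ downstream of Gq-coupled receptors. Plcb1 had 22.3 ± 5.46 RPKM, Plcb4 8.92 ± 4.05, Plcb3 4.78 ± 0.775 and Plcb2 0.708 ± 0.166. Plcb4 ranged most, with 15.3 RPKM in mouse 7, 7.74 to 9.38 in mice 8 to 10 and 4.14 in mouse 11. Its unadjusted p for variation was 0.0139 and its adjusted p 0.981 in edgeR. The receptor gene Grm5 had 23.1 ± 5.08 RPKM, and the G protein genes Gnaq and Gna11 55.7 ± 6.81 and 34.2 ± 6.71. Grm5, Plcb1, Plcb4 and Gnaq were lowest in mouse 11 in RPKM, whereas Gna11, Plcb2 and Plcb3 were highest there. Over the 8 genes of this list, 4 were lowest in mouse 11 after TMM scaling, against 32.8% of all genes, and 1 with the GC and length trend removed, against 24.9%. The number highest there was 3 in both, against 37.5% and 29.9% of all genes.

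Lipid carriers, which move anandamide through the cell, ranged from 11.3 to 20.2 RPKM for Fabp3 and averaged 11.6 ± 2.03 for Scp2, 9.86 ± 2.13 for Fabp5 and 8.14 ± 4.45 for Fabp7. Fabp7 had 13.7, 11.2, 8.12, 5.04 and 2.69 RPKM in mice 7 to 11, with an unadjusted p of 0.0143 and an adjusted p of 0.981 in edgeR. Around Abhd12, the enzyme Abhd16a that makes lysophosphatidylserine had 17.2 ± 4.42 RPKM and its receptor gene Gpr34 4.39 ± 1.98. The related receptor genes Gpr174 and P2ry10 had means of 2.4 and 0.2 counts.

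Downstream of CB1, the inhibitory G protein genes Gnao1 had 103 ± 10.9 RPKM, Gnai2 50.8 ± 12.5 and Gnai3 10.3 ± 2.68, while Gnai1 ranged from 69.5 to 99.3. The receptor kinase Grk2 ranged from 50.9 to 79.0 RPKM, and the arrestins Arrb1 and Arrb2 averaged 37.6 ± 1.91 and 9.14 ± 2.19. The potassium channel genes Kcnj3, Kcnj9 and Kcnj6 had 21.1 ± 2.70, 16.3 ± 3.30 and 5.77 ± 0.754 RPKM. After TMM scaling, 6 of these 10 genes were highest and 4 lowest in mouse 11, against 37.5% and 32.8% of all genes. After correction for GC content and length, 3 were highest and 1 lowest there, against 29.9% and 24.9%.

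**Figure D5:**
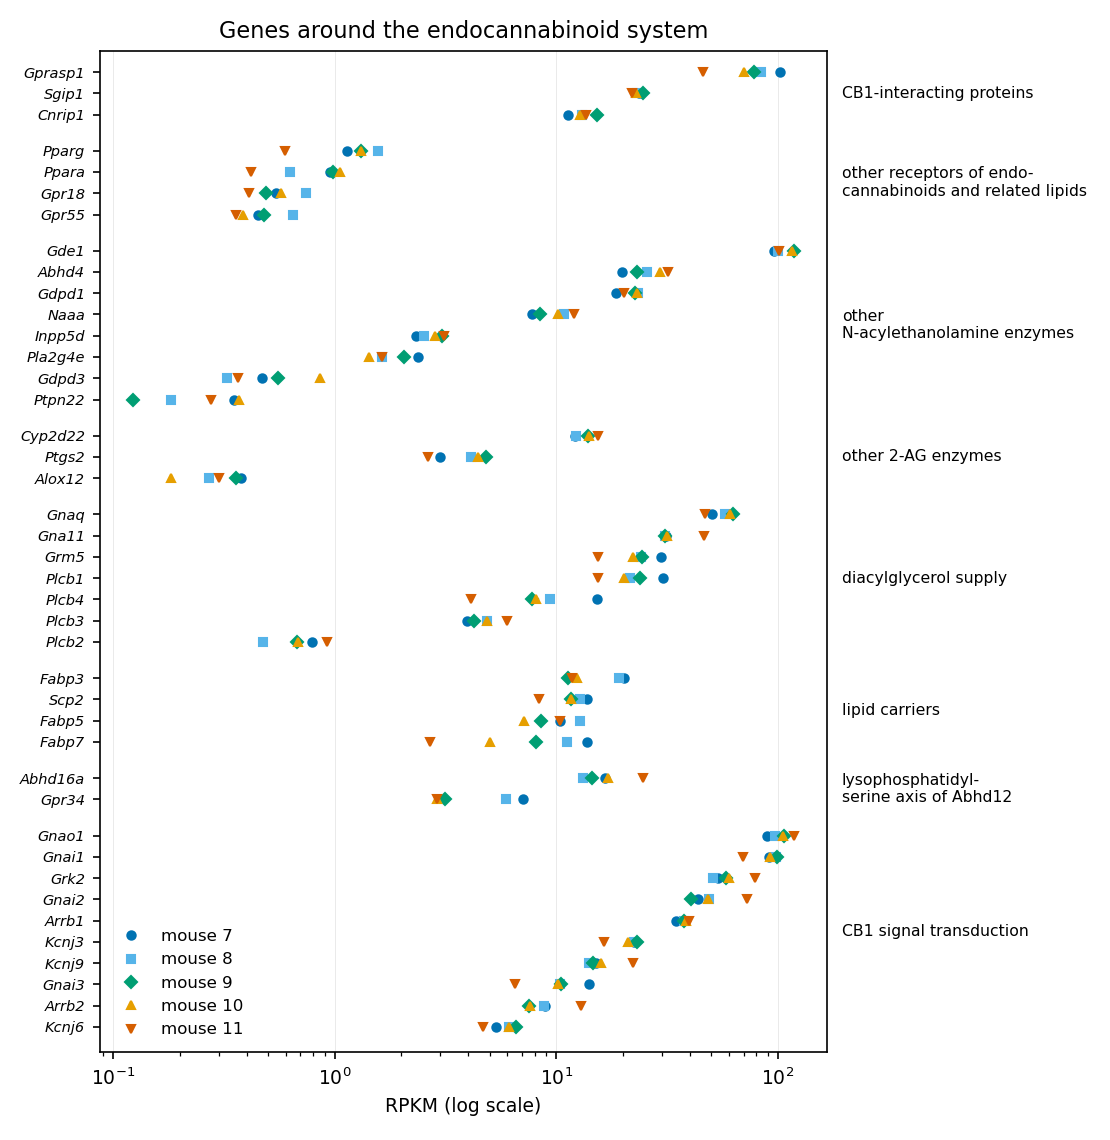
Level in RPKM on a log axis of the tested related genes that are reported here, by list, with 1 point per mouse. Mouse 11 lies lowest for all 4 plotted lipid receptors and for Plcb4, and highest for Gna11, Gnai2 and Grk2.

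Markers of the cells that carry the system were measured in every library. The 5 markers of interneurons that express cholecystokinin, which are rich in CB1, summed to 200 CPM in mouse 11 and between 128 and 147 CPM in the others, while Cnr1 was lowest in mouse 11. Most of this sum came from Cck, with 3045 counts in mouse 11 and 1257 to 1560 in the others. The other markers did not share 1 direction. Vip was lowest in mouse 11, at 13.8 CPM against 22.4 to 29.1 in the others. Htr3a was highest there, at 13.2 CPM against 7.67 to 11.5, and Sncg and Slc17a8 lay within the others. Excitatory neuron markers summed to 5610 CPM in mouse 11 and between 3436 and 4087 CPM in the others. Of these 6 markers, 4 were highest and 1 lowest in mouse 11 after TMM scaling, against 37.5% and 32.8% of all genes. Slc17a6 was the lowest, at 45.7 CPM against 68.5 to 112 in the others. Neurod6, at 58.9 CPM, lay within the others, at 55.2 to 67.9. Astrocyte markers summed to 4339 CPM in mouse 11 and between 5341 and 6249 CPM in the others. Without the glutamate transporter gene Slc1a2, their most abundant marker, mouse 11 had 1542 CPM and lay within the others, at 1474 to 1781 CPM. Markers of the cerebellum, where CB1 is abundant on granule cell axons, summed to 147 CPM in mouse 10 and between 21.4 and 57.7 CPM in the others. Cnr1 had 40.5 RPKM in mouse 10, within the range of the other mice. The part of cell makeup in the differences between mice was not tested.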

How the data were processed

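Whole-number counts per Ensembl gene, as deposited by the authors, were the input, for 5 libraries. The tools named are featureCounts 1.4.6-p4, STAR 2.4.1d and CASAVA 1.7, with the build GRCm38, per the submitters' processing notes, which as used here give no roles or settings. Annotation release and strand setting are not given in the sources used here. The authors also deposited RPKM. Gene lengths implied by them agreed within 1% across libraries for 0 of 12729 genes with each library's own total, and for all 12729 when the 5 totals were taken in turn down the table. RPKM was therefore recomputed from the counts with own totals and those lengths. Symbols, coordinates and GC content come from GENCODE M21.

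How far each gene varied among the mice was tested with edgeR 4.0.16, in a quasi-likelihood fit of an intercept, TMM scaling and a mean count of at least 10. Dispersions were compared with an F distribution fitted robustly in limma 3.58.1, with Benjamini-Hochberg adjustment over 16318 genes. The procedure was tested on simulated data, which held no GC trend and no dispersion particular to a gene. Its power in these data was not tested. GC and length trends were removed with splines of 5 degrees of freedom. Log2 CPM used a prior count of 1. The 10 pairs of libraries all differed beyond sampling noise (mean chi-square per gene of 6.49 to 90.5), so each counted as 1 sample. Pairs with mouse 11 gave 37.7 to 90.5, pairs of mouse 7 with mice 8 to 10 gave 20.9 to 29.1, and pairs among mice 8 to 10 gave 6.49 to 8.75. Genes named are the members, genes of the lists of related genes, markers, and the 3 genes nearest in pattern to Cnr1 and to the member with the largest SD. Members and lists were chosen with earlier results of these data known. A few items of these lists are not reported here.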

Additional observations from a re-analysis of the deposited data

Results flagged for a closer look

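In 10 of the values examined, 1 mouse lay far from the other 4, with a gap to the nearest value above 0.71 of the range (Dixon's criterion). They come from 51 genes and 12 marker sums in CPM; chance alone gives such a value in about 5% of groups, and 12% of all 16318 genes tested had one. Of the 9 endocannabinoid genes 2 were among them: Daglb had 42.1 CPM in mouse 11 against 30.7 to 33.1 elsewhere, and Mgll had 277 CPM in mouse 11 against 159.6 to 193 elsewhere. Mouse 11 was also high for Gna11 with 189 CPM, Gnai2 with 274, Arrb2 with 36.6 and Kcnj9 with 94.9, and low for Gnai1 with 218 CPM. Among marker sums, cholecystokinin interneurons had 199.9 CPM in mouse 11, of which Cck gave 163. Inhibitory neurons had 1134 CPM in mouse 7, the lowest, and cerebellum 147 CPM in mouse 10, the highest. Of the inhibitory sum in mouse 7, Gad1 gave 568 CPM, its lowest value, while Gad2 was highest there, at 351 CPM. After TMM scaling, 3 of the 6 inhibitory markers were lowest and 1 highest in mouse 7, where 4134 and 4080 of all 16318 genes were.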

How the results depend on the processing

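The count of genes called variable in edgeR was 0 with DESeq2 size factors, library size scaling, a mean count of at least 50, the GC and length trend removed, and without each mouse in turn. It was 230 of 28335 genes (0.81%) with no filter beyond 1 count, none of them an endocannabinoid gene. Of these, 12 were in the gene and marker lists, with Plcb4 and Fabp7 of the related genes among them. The count was 2 (the cerebellar genes Cbln3 and Fat2) without mouse 11 and with the trend removed, a setting added after seeing the data. None of the 9 genes was called where it was tested; Cnr2 was not tested with a mean count of at least 50 or in either setting without mouse 11. The direction of every pair held in all settings run, with leave-one-out log2 ratios of 6.85 to 7.44 for Cnr1 over Cnr2 and 0.86 to 0.90 for Mgll over Dagla. With 1 or 0.01 added to RPKM in place of 0.1, Cnr1 over Cnr2 was 5.04 or 7.999. Pairs with a mean RPKM of at least 1 left out Cnr1 over Cnr2. Levels moved by more than their SD only per length of the longest protein-coding transcript, also added after seeing the data: to 7.27 RPKM for Daglb, 50.2 for Mgll, 24.0 for Faah and 159.9 for Abhd12, because that length is shorter. No paired analysis was possible because the labels give 1 group. Depth limits the values of Cnr2, Trpv1 and Gpr119 most.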
